A study of Mus musculus with 10 samples.

Results

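The 9 genes described here are the receptors of the peroxisome proliferator-activated receptor (PPAR) family and a set of genes they regulate, followed in fetal mouse testes cultured with an inhibitor of glycogen breakdown. They were taken by gene symbol from a table of 24470 entries: the receptors Ppara, Ppard and Pparg, and the target genes Pdk4, Angptl4, Vnn1, Acot1, Acot2 and Ucp3. Gonads with attached mesonephroi came from 5 C57BL/6 embryos at E12.5. From each embryo 1 gonad was cultured for 48 h with 75 µM of a glycogen phosphorylase inhibitor (GPI), and its partner was cultured as long with the vehicle, DMSO. The mesonephros was then removed and each whole testis was sequenced as bulk RNA, giving 5 GPI and 5 vehicle libraries that share their embryos, numbered mouse 1 to mouse 5. The inhibitor was not directed at any single cell type of the explant. Total counts ranged from 10203679 to 15590223 in the vehicle libraries and from 11025409 to 15635322 in the GPI libraries.

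PPARs are nuclear receptors that are activated by fatty acids and their derivatives. They bind DNA as partners of the retinoid X receptors (RXR), at direct repeats of a short half-site, and recruit coactivators or corepressors. PPARα drives fatty acid oxidation in liver, heart and other oxidative tissues, PPARδ does so in many tissues including muscle, and PPARγ is best known for the formation of fat cells.

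In the cultured testes the receptor genes Ppara and Pparg and the target genes Vnn1 and Acot2 were higher with GPI, whereas the target gene Pdk4 was lower. Levels are given as normalized counts, which are read counts scaled by trimmed mean of M values (TMM) to the mean library. Changes were tested with edgeR's quasi-likelihood test, paired by mouse, with Benjamini-Hochberg adjustment over 13941 tested genes, and a gene is called when this edgeR adjusted p is under 0.05. Of the 8 members tested, 5 were called, 4 higher and 1 lower, and 3 of these calls (Ppara, Vnn1 and Acot2) were kept under every alternative analysis while those of Pparg and Pdk4 were not. Across all tested genes 22.9% were called, 11.1% higher and 11.9% lower. The 1544 genes called higher became 969 without mouse 3 and 1024 without mouse 4, and scaling by total counts gave 1238 higher and 1972 lower. The normalized counts of the GPI and vehicle libraries did not overlap for 2 of the 8 tested members, Ppara and Vnn1, while this was so for 16.1% of all tested genes. Ucp3 was too low to be tested. The median log2 fold change was 0.46 over the 8 tested members and 0.02 over all tested genes.

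Markers of several cell types differed between the groups, and in bulk RNA fewer cells of a type and less RNA per cell cannot be told apart. The labelled tissue had its defining genes: Sertoli cell markers were detected in every library, with 7 of 10 called higher, none called lower by edgeR, DESeq2 or limma (0 at an unadjusted p under 0.05), and Aard the most abundant per kilobase. Their summed normalized counts were 3367, 5241, 3846, 5031 and 5380 in the vehicle gonads of mice 1 to 5 and 3899, 7055, 7212, 9254 and 6996 in the GPI gonads. Fetal Leydig cell markers were called higher for all 8 tested of 9 listed, with Insl3 under the filter on low counts and Hsd3b1 the most abundant per kilobase. They summed to 2118, 3926, 5216, 2902 and 6794 with vehicle and to 12100, 12650, 18973, 21685 and 16201 with GPI, so the ranges did not overlap. Endothelial markers, led by Cdh5, were called lower for 12 of 12 genes, from sums of 8430, 8897, 8151, 9384 and 8494 to 1064, 1257, 884, 691 and 932, or 11.1% of the vehicle mean. Pericyte and smooth muscle markers were called lower for 6 of 9 genes, the exceptions being Acta2, Myh11 and Des, with Acta2 the most abundant per kilobase over both groups. Their sums were 10511, 11562, 11554, 11047 and 10220 with vehicle and 3632, 3288, 3318, 2613 and 3221 with GPI.

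Germ cell markers were called lower for 5 of 7 tested of 10 listed, the exceptions being Kit and Dnd1. Over both groups Dppa3 was the most abundant per kilobase, whereas with GPI alone Kit was (147, and 12 for Dppa3). The germ cell markers summed to 1712, 2906, 2116, 2753 and 1524 with vehicle and to 912, 729, 766, 968 and 936 with GPI. Kit, which is not called, made up most of the GPI sums (a mean of 771 normalized counts of 862.3), and the median log2 fold change of the 7 tested markers was -4.62. Macrophage markers were called lower for 8 of 9 tested of 10 listed, all but Adgre1, with Tyrobp leading. Their sums were 949, 668, 803, 738 and 657 with vehicle and 454, 389, 359, 203 and 237.5 with GPI. Each of these 4 declining lists was lower in the GPI gonad of every mouse, as the plot of summed markers shows. No listed marker of these cell types was at 0 counts in all 10 libraries. The part that these cell types had in the changes of the PPAR genes was not tested.

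**Figure D1:**
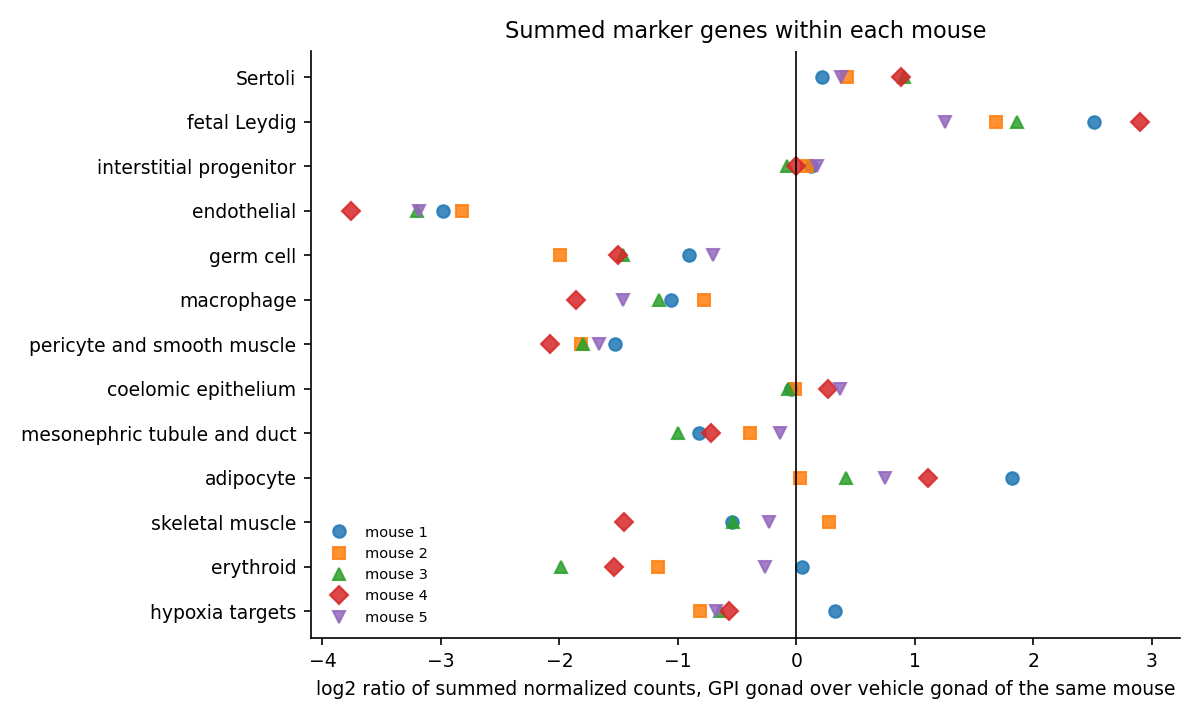
Summed normalized counts of each marker list, as the log2 ratio of the GPI gonad to the vehicle gonad of the same mouse; each symbol is 1 mouse and the vertical line marks no difference. Endothelial, pericyte, germ cell and macrophage sums lie left of the line in all 5 mice and fetal Leydig and Sertoli sums lie right of it, while for the hypoxia targets mouse 1 stands apart on the right.

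The GPI gonad of mouse 1 stood apart in genes that respond to low oxygen. Summed normalized counts of 12 hypoxia targets and factors were 22089 in that library and 11583, 10168, 10735 and 10641 in the GPI gonads of mice 2 to 5. In the vehicle gonads the same sum was 17611, 20307, 15869, 15971 and 17012, so this GPI library lay above all vehicle libraries and the other GPI libraries lay under them. The sum includes the factors Hif1a and Epas1, which did not share this pattern. Among the GPI gonads both were lowest in mouse 1 (4204 and 934.6 normalized counts). Values with and without this mouse are given for the members whose change it moved.

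Ppara (Entrez gene 19013, chr15:85735564-85806851 in mm10) encodes PPARα. Its normalized count was 39.9, 38.2, 60.3, 43.8 and 83.0 in the vehicle gonads of mice 1 to 5 and 125, 165, 155, 149 and 143 in their GPI gonads. Every GPI library lay above every vehicle library, and the vehicle gonad of mouse 5 was the highest of its group. The means were 53.0 ± 18.9 with vehicle and 148 ± 14.9 with GPI (SD, n = 5 each). Within mice the log2 ratio of GPI to vehicle was 1.61, 2.06, 1.33, 1.72 and 0.77, and the fitted log2 fold change was 1.51 (2.85-fold) with a standard error of 0.21 and an edgeR adjusted p of 0.000127.

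Pparg (Entrez gene 19016, chr6:115360951-115490401) encodes PPARγ and was the receptor with the fewest reads. It read 25.5, 23.9, 22.3, 30.9 and 15.2 normalized counts with vehicle and 75.0, 37.3, 51.35, 37.9 and 29.4 with GPI. The gonad treated with GPI was higher in 5 of 5 mice, most in mouse 1, but the groups overlapped because the GPI gonad of mouse 5 lay under the vehicle gonad of mouse 4. Means were 23.6 ± 5.66 and 46.2 ± 17.9 (SD, n = 5 each), and the log2 fold change of 0.93 (SE 0.30) passed the threshold with an edgeR adjusted p of 0.041. The call was kept without mouse 4 but lost without any other mouse: the edgeR adjusted p was 0.154 without mouse 1, 0.0545 without mouse 2, 0.145 without mouse 3 and 0.0832 without mouse 5, with log2 fold changes of 0.75, 1.0, 0.84 and 0.92. Scaling by total counts alone gave an edgeR adjusted p of 0.0533, and over all alternatives it lay between 0.0233 and 0.154.

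Ppard (Entrez gene 19015, chr17:28232754-28301469) encodes PPARδ, and its span overlaps that of 1810013A23Rik on the same strand, whose reads may not be separable from its own. Normalized counts were 65.3, 112, 86.0, 102 and 80.0 with vehicle and 91.8, 100.5, 53.25, 58.9 and 61.0 with GPI. The groups overlapped, with mice 2 to 5 lower and mouse 1 higher after GPI. With means of 89.0 ± 18.3 and 73.1 ± 21.5 (SD, n = 5 each), the log2 fold change was -0.31 (SE 0.22, edgeR adjusted p = 0.357), and it was -0.51 (edgeR adjusted p = 0.112) without mouse 1. Over all alternatives the adjusted p of Ppard lay between 0.112 and 0.681.

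**Figure D2:**
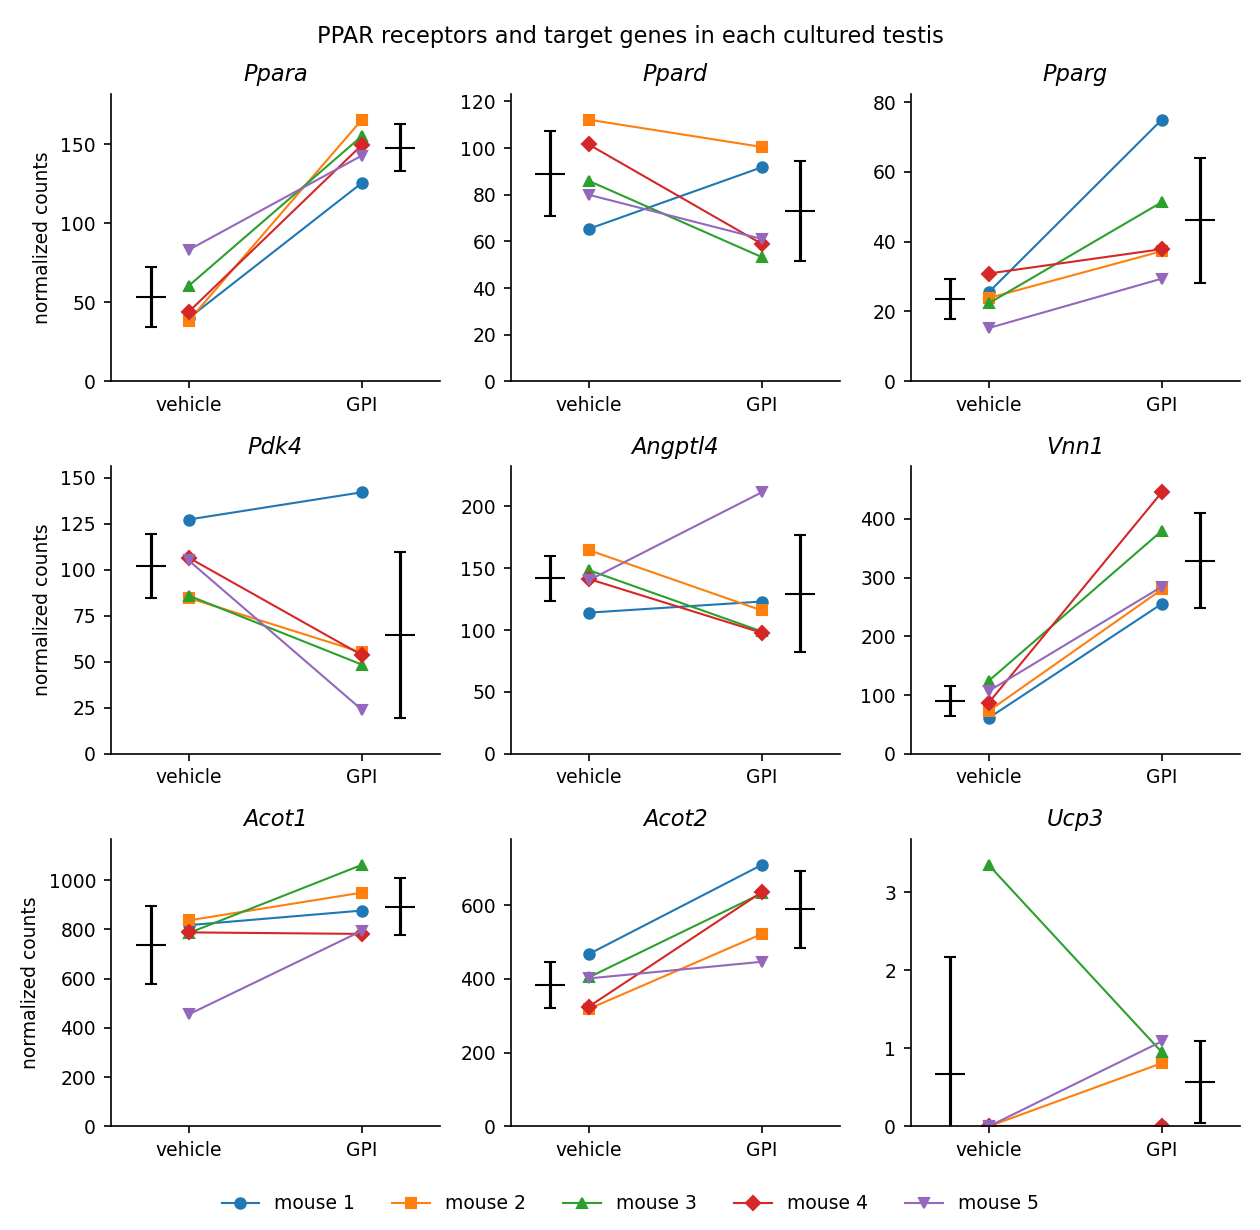
Normalized counts of the 9 genes in the vehicle and GPI gonads; each line joins the gonads of 1 mouse, and the horizontal marks with bars beside them are the mean and SD of 5 libraries. Ppara and Vnn1 separate the groups completely, Pdk4 falls in mice 2 to 5 but not in mouse 1, and Ucp3 stays at or under 3.35 normalized counts.

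Per kilobase of merged exons, the balance of the receptors shifted towards Ppara. Its share of the 3 receptors' normalized counts per kilobase was 28.7%, 21.3%, 34.6%, 23.6% and 45.8% in the vehicle gonads and 38.9%, 52.4%, 55.2%, 57.3% and 58.6% in the GPI gonads. The share was higher with GPI in each mouse, and the groups overlapped only through the vehicle gonad of mouse 5 and the GPI gonad of mouse 1. Ppard made up 48.8 ± 6.89% of receptor counts per kilobase with vehicle and 24.0 ± 4.75% with GPI, and Pparg 20.4 ± 5.63% and 23.5 ± 7.09% (SD, n = 5 each). The summed level of the 3 receptors was 39.8, 51.3, 49.9, 53.0 and 51.8 normalized counts per kilobase with vehicle and 92.2, 90.2, 80.3, 74.6 and 69.7 with GPI, with no overlap between groups. Ppard was the receptor with the highest mean level per kilobase with vehicle (24.1), ahead of Ppara (15.2) and Pparg (9.91), and the ranges of Ppara and Ppard overlapped. With GPI the highest was Ppara (42.2), followed by Ppard (19.8) and Pparg (19.4), and these last differed by less than their spread. Being ratios within a library, the shares do not depend on how libraries were scaled.

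**Figure D3:**
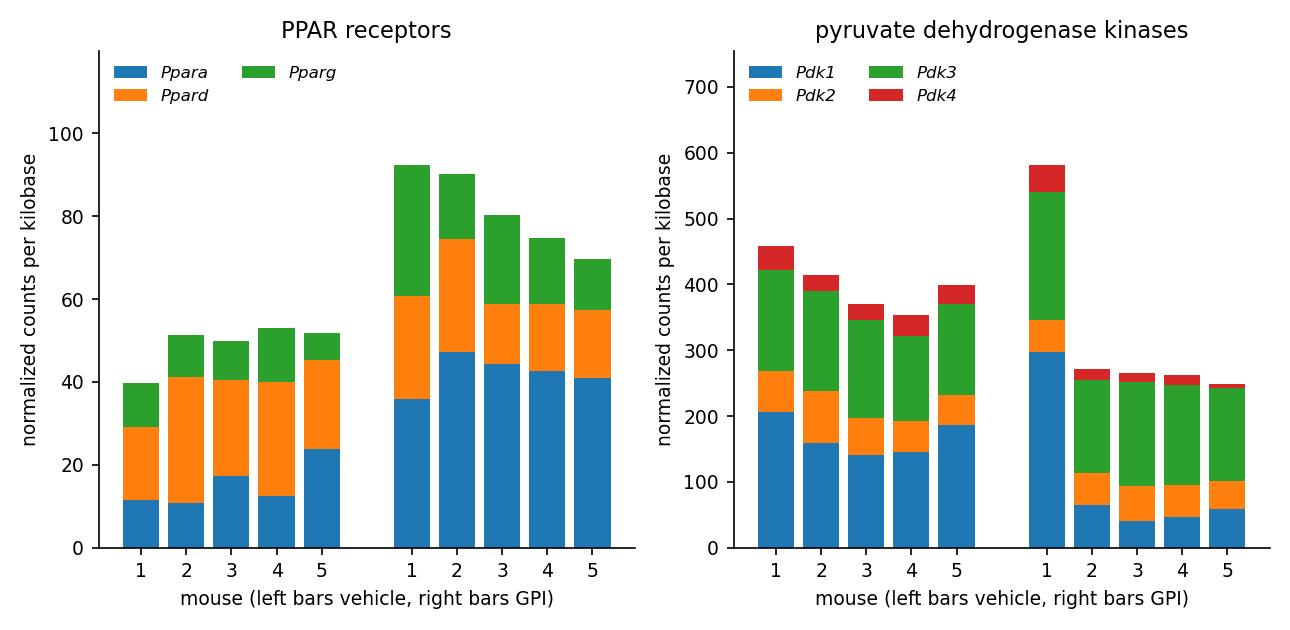
Normalized counts per kilobase of merged exons in each library, stacked by gene, for the PPAR receptors (left) and the pyruvate dehydrogenase kinases (right); the 5 bars on the left of each panel are vehicle and the 5 on the right GPI. Receptor totals are higher in all GPI gonads, and kinase totals are lower in the GPI gonads of mice 2 to 5 but highest in that of mouse 1.

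Vnn1 (Entrez gene 22361, chr10:23894688-23905343) encodes vanin-1, a pantetheinase that releases pantothenate and cysteamine during the breakdown of coenzyme A, and it is a known PPARα target. Normalized counts were 60.9, 72.8, 124, 86.7 and 107 with vehicle and 255, 279.7, 379, 445 and 284 with GPI. The lowest GPI library was above the highest vehicle library. Means were 90.2 ± 25.4 and 329 ± 80.4 (SD, n = 5 each), and Vnn1 had the smallest adjusted p of the members, with a fitted log2 fold change of 1.87 (3.65-fold, SE 0.15, edgeR adjusted p = 1.28e-06). The ratio was positive in 5 of 5 mice, between 1.40 and 2.33 on the log2 scale.

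Acot2 (Entrez gene 171210, chr12:83987861-83993877) and Acot1 (Entrez gene 26897, chr12:84009502-84017670) are neighbouring copies that encode acyl-CoA thioesterases, mitochondrial and cytosolic, which release free fatty acids from their coenzyme A esters. Acot2 read 467, 319, 404, 325 and 401.5 normalized counts with vehicle and 709.6, 522, 632, 635.5 and 447 with GPI. It was higher with GPI in 5 of 5 mice, least in mouse 5, and the groups overlapped only between the GPI gonad of mouse 5 and the vehicle gonad of mouse 1. The means of 383 ± 62.1 and 589 ± 104 (SD, n = 5 each) gave a log2 fold change of 0.62 (SE 0.11, edgeR adjusted p = 0.00131).

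Acot1 read 817, 836.5, 785, 788 and 455 with vehicle and 876, 949, 1062, 782 and 794 with GPI. The vehicle gonad of mouse 5 was far under the rest, and mouse 4 was level between its gonads. Means were 736 ± 159 and 893 ± 116 (SD, n = 5 each), and the log2 fold change of 0.30 (SE 0.11) missed the threshold with an edgeR adjusted p of 0.0679. With no filter on low counts the same log2 fold change had an edgeR adjusted p of 0.0444, within a range of 0.0444 to 0.25 over the alternatives for Acot1 alone. The transcripts of Acot1 and Acot2 share 206 stretches as long as a read, which is 9.71% of the 2122 such stretches of Acot1 and 10.1% of the 2046 of Acot2, so part of their reads could be assigned to either. Summed over both genes, normalized counts were 1284, 1155, 1189, 1113 and 856 with vehicle and 1586, 1471, 1694, 1417 and 1241 with GPI. The sum was higher with GPI in each mouse and its log2 fold change was 0.41 (SE 0.07, edgeR adjusted p = 0.00107).

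Pdk4 (Entrez gene 27273, chr6:5483351-5496278) encodes a pyruvate dehydrogenase kinase, which restrains the entry of pyruvate into the citric acid cycle and is induced by PPARs during fasting. Against the direction of Vnn1 and Acot2, its normalized count was 127, 84.7, 86.0, 107 and 105 with vehicle and 142, 55.1, 48.5, 53.7 and 24.0 with GPI. Mice 2 to 5 were lower with GPI and lay under the whole vehicle range, while the GPI gonad of mouse 1 was the highest library of all. Means were 102 ± 17.5 and 64.7 ± 45.1 (SD, n = 5 each), with a log2 fold change of -0.83 (SE 0.27, edgeR adjusted p = 0.0401). Without mouse 1 the log2 fold change was -1.12 (edgeR adjusted p = 0.00742). The call was lost without mouse 2, 3, 4 or 5, where the log2 fold changes were -0.87, -0.85, -0.78 and -0.55 and the edgeR adjusted p values 0.0728, 0.0942, 0.118 and 0.14. It was also lost with limma-voom (-0.70, adjusted p = 0.0729) and with no pairing by mouse, the fit without the replicate block (-0.66, edgeR adjusted p = 0.18). Over all alternatives the adjusted p of Pdk4 lay between 0.00742 and 0.18.

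Pdk4 was the smallest contributor among its paralogs. It made up 7.35 ± 1.1% of the summed normalized counts per kilobase of Pdk1 to Pdk4 with vehicle and 5.35 ± 1.58% with GPI (SD, n = 5 each). Pdk1 behaved alike: it read 1073, 826, 731, 752 and 968 with vehicle and 1542, 337, 209, 242 and 304 with GPI. The GPI gonad of mouse 1 was again above all vehicle gonads and the other GPI gonads were under them. The log2 fold change of Pdk1 was -1.17 (SE 0.26, edgeR adjusted p = 0.0053), it was -1.61 (1.49e-07) without mouse 1, and with no pairing by mouse it was -0.73 and no longer called (0.257), the highest value over the alternatives. Pdk2 had a log2 fold change of -0.23 (edgeR adjusted p = 0.359) and Pdk3 of 0.12 (0.489). Per kilobase Pdk1 was the highest of the kinases with vehicle (168, and 144 for Pdk3) and Pdk3 with GPI (157, and 102 for Pdk1). The phosphatases that act against these kinases were called higher, Pdp1 with a log2 fold change of 0.36 (edgeR adjusted p = 0.0245) and Pdp2 of 0.84 (0.0305). Neither call was stable: Pdp1 lost it without mouse 1, 3 or 4 (up to 0.146) and with scaling by total counts, and Pdp2 lost it without mouse 2, 3 or 4 (up to 0.153), with limma-voom and with no pairing.

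Angptl4 (Entrez gene 57875, chr17:33774900-33781575) encodes a secreted inhibitor of lipoprotein lipase. Its normalized counts were 114, 165, 148.5, 141 and 140.2 with vehicle and 123, 116, 98.9, 97.85 and 211 with GPI. The groups overlapped: mice 2 to 4 were lower with GPI, mouse 5 had the highest value of all libraries and mouse 1 was nearly level. Means were 142 ± 18.3 and 129 ± 47.1 (SD, n = 5 each), and the log2 fold change of -0.18 (SE 0.19) was not called (edgeR adjusted p = 0.573, from 0.188 to 0.84 over the alternatives). The log2 fold change ranged from -0.38 to -0.09 over the alternatives, and the value without mouse 5 was -0.38 (edgeR adjusted p = 0.188).

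Ucp3 (Entrez gene 22229, chr7:100472991-100486432) encodes a mitochondrial carrier of skeletal muscle and brown fat. It had 3 counts in the vehicle gonad of mouse 3, 1 count each in the GPI gonads of mice 2, 3 and 5, and 0 counts in the other 6 libraries. At this depth, where a count of 0 allows up to 3 counts, Ucp3 was not detectable above the limit and no fold change is given. Of 8 skeletal muscle markers listed 6 were under the filter on low counts, with Myod1 at 0 counts in every library.

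**Figure D4:**
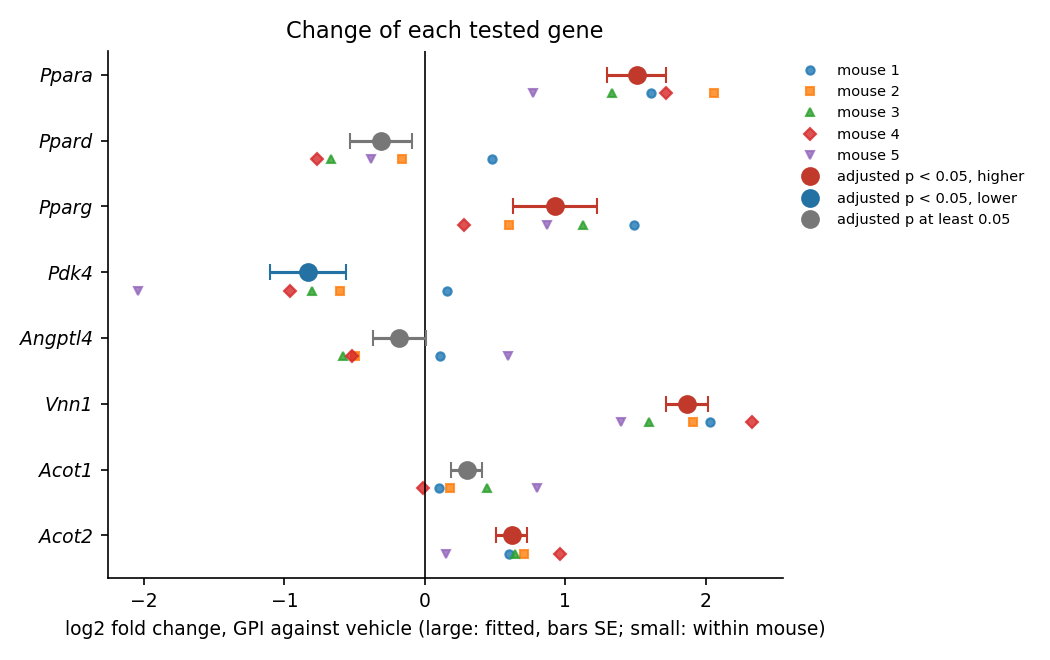
Change of the 8 tested genes with GPI on the log2 scale; large points with bars are the fitted log2 fold change and its SE, coloured by the call, and small symbols are the ratios within each of 5 mice. Ppara, Pparg, Vnn1 and Acot2 lie right of 0 in all 5 mice, and Pdk4 lies left of it in 4 of 5.

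Among the targets the level per kilobase was highest for Acot1 in both groups (324 with vehicle and 393 with GPI), followed by Acot2 (175 and 268). Angptl4, Vnn1 and Pdk4 were close together with vehicle at 42.9, 37.3 and 29.3 normalized counts per kilobase. With GPI they were spread out, with Vnn1 at 136, Angptl4 at 39.1 and Pdk4 at 18.6. Ucp3 was last with 0.274 and 0.233.

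For each called member, the other tested genes whose deviations from the treatment mean were most alike over the 10 libraries were listed by Pearson r, as a description without a test. Picking the highest r among all tested genes over 10 libraries gives high values by itself. Shared regulation was not tested. Ppara was most like Klf1 (r = 0.95) and Map2k5 (0.94), and Pparg was most like Itgav (0.94) and Stat3 (0.94). Pdk4 was most like Aprt (0.99) and Malsu1 (0.96), and its GPI library of mouse 1 lay far from the other GPI libraries (142.1 normalized counts). Vnn1 came closest to Art4 (0.94) and Slc7a11 (0.93), and Acot2 to Rad52 (0.96) and Usp50 (0.95). Of these 10 genes Slc7a11, the cystine transporter, had a log2 fold change with GPI of 1.99 (edgeR adjusted p = 1.19e-05), whereas Klf1 fell by 1.71 (0.00581), Art4 by 0.73 (0.00753) and Stat3 by 0.57 (0.000449), and the other genes were not called.

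Promoter sequence was searched for PPAR sites. RefSeq promoter windows (GRCm38.p6, 250 bases before a transcription start) were matched for 7 of the 9 members, 9 windows in all, with no entry for Angptl4 and Vnn1. The PPAR half-site AGGTCA was searched on both strands, as was the direct repeat of 2 half-sites separated by 1 base, in which up to 2 mismatches were allowed. A half-site was found in 3 of the 9 windows, and 14% of 32851 windows of all genes hold one. Pparg had one in 2 of its 3 windows, starting 28 and 9 bases before the start sites and both within annotated exons, and Ucp3 had 2 copies. The repeat was found in 1 of the 9 windows, that of Ucp3, with 2 mismatches and overlapping its second half-site, and 3.24% of all windows hold it. No match in these windows says only that these letters are not there. The stretches outside annotated exons are shown for the called members with a window and for Acot1 and Ucp3, 5′ to 3′, with half-sites in capitals. The Pparg stretch shown is the window without one. The Ppara window has 150 of its 250 bases in exons. Only the 62 bases next to its start site are shown, and its other bases outside exons are left out.
Ppara, chr15:85735714-85735775, plus strand: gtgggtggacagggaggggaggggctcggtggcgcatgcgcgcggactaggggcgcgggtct
Pparg, most downstream start, chr6:115421816-115422065, plus strand: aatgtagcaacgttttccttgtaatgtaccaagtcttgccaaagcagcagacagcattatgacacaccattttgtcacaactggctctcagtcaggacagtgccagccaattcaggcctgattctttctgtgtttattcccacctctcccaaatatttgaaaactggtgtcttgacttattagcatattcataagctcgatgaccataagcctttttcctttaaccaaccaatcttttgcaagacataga
Pdk4, chr6:5496310-5496528, minus strand: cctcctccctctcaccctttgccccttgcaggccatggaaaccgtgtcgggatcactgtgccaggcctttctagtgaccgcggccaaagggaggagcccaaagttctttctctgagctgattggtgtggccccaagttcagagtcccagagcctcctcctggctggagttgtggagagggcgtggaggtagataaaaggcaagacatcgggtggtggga
Acot1, chr12:84009252-84009489, plus strand: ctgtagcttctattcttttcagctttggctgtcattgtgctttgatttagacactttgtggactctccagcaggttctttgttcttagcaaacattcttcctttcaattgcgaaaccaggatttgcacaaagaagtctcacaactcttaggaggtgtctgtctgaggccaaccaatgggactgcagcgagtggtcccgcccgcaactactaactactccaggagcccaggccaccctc
Acot2, chr12:83987611-83987860, plus strand: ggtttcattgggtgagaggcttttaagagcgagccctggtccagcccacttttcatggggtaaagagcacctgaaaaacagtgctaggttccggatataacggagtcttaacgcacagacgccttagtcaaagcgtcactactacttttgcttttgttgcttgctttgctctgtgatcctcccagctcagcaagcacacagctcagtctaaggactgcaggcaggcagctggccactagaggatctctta
Ucp3, chr7:100472741-100472989, plus strand: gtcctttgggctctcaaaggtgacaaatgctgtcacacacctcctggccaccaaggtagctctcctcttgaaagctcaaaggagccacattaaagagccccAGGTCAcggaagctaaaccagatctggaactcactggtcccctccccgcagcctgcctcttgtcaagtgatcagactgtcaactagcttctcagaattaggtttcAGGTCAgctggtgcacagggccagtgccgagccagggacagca

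Of 23 RXR genes and coregulators 22 were tested, and 3 were called higher (8 at an unadjusted p under 0.05), where 22.9% of all tested genes were called in either direction. Their median log2 fold change was 0.06. None was called lower by edgeR, DESeq2 or limma with the mouse in the design (1 at an unadjusted p under 0.05, Crebbp). Rxra, the most abundant RXR per kilobase, had 472.5 normalized counts with vehicle and 508 with GPI (log2 fold change 0.10, edgeR adjusted p = 0.467), and Rxrg was under the filter. Ppargc1a, the coactivator PGC-1α of mitochondrial biogenesis, rose from 648.5 to 853 (log2 fold change 0.40, SE 0.11, edgeR adjusted p = 0.0137), higher in 5 of 5 mice. The steroid receptor coactivator Ncoa1 rose from 1289 to 1679 (0.39, SE 0.08, 0.00402) and the corepressor subunit Tbl1x from 2213 to 2578 (0.22, SE 0.07, 0.028), each in 5 of 5 mice. The corepressor Ncor1, the most abundant of the list per kilobase, read 6972 and 7019 (0.01, 0.919), and its sign turned in 4 of the alternatives. Only 1 of the 3 calls was made without mouse 3, 4 or 5: Ppargc1a then had an edgeR adjusted p of up to 0.0866 and Tbl1x of up to 0.187, and Tbl1x lost its call without mouse 1 (0.0551) and with scaling by total counts too.

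Other known PPAR target genes moved in both directions. Of 86 listed, 58 were tested, 16 were called higher and 11 lower. Across all tested genes 11.1% were called higher and 11.9% lower, which is the background for the lists that follow too. The median log2 fold change of the 58 targets was 0.18, against 0.02 over all tested genes. Without mouse 3 the count of these targets called higher was 9, and without mouse 4 it was 10. Many targets typical of liver were at or near 0: Fabp1, Cyp4a10, Cyp4a12a, Cyp4a14, Cyp8b1 and Apoa5 had no counts in any library.

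Of the genes of mitochondrial oxidation 4 of 14 tested were called higher and 2 lower. Acaa2, a thiolase and the most abundant of the list per kilobase, rose from 1029 to 1621 normalized counts (log2 fold change 0.67, SE 0.08, edgeR adjusted p = 5.57e-05), and Etfdh, which passes electrons from acyl-CoA dehydrogenases to ubiquinone, rose by 0.43 (0.00274). Among peroxisomal genes 3 of 12 were called higher and 2 lower. Abcd2, a transporter of very long-chain fatty acids, had a log2 fold change of -1.0 (edgeR adjusted p = 0.000631) and catalase (Cat), the most abundant of this list, of -0.39 (0.0026), while Ech1 rose by 0.38 (0.0178) but was not called without mouse 2 (0.0527) or 3 (0.0973).

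The lists of uptake, binding and activation held both extremes. Of 13 tested genes 4 were called higher and 4 lower. Fabp3, the fatty acid-binding protein of heart and muscle, read 68.65, 71.6, 64.8, 83.7 and 70.1 with vehicle and 109.7, 269, 393, 284 and 236 with GPI. The groups did not overlap and the log2 fold change was 1.76 (SE 0.22, edgeR adjusted p = 4.47e-05). Fabp4, the fatty acid-binding protein of adipocytes and capillary endothelium, went the other way, with 343, 432, 339.5, 319.7 and 341 with vehicle and 12.3, 6.49, 9.51, 0 and 5.45 with GPI (log2 fold change -5.72, SE 0.30, edgeR adjusted p = 3.04e-08). Gpihbp1, which anchors lipoprotein lipase on capillary endothelium, fell by 4.48 (SE 0.20, 6.9e-09). Both of these genes fell along with the endothelial marker sum, which was 11.1% of its vehicle mean, and the part of that cell type in their change was not tested. Dbi, the acyl-CoA-binding protein and the most abundant of the list per kilobase, rose by 0.81 (SE 0.11, edgeR adjusted p = 8.2e-05).

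Lipid droplet and triglyceride genes were mostly not called. Among the 10 tested, Mgll, a monoacylglycerol lipase, was called lower (log2 fold change -1.73, SE 0.43, edgeR adjusted p = 0.00896), and the coat protein Plin2, the most abundant, had a log2 fold change of -0.18 (0.27). In contrast 4 of 5 tested genes of the lipoprotein and microsomal list were called higher, and 11 of its 16 genes were under the filter. Me1, the malic enzyme that supplies NADPH for lipid synthesis, rose from 2403 to 5050 (log2 fold change 1.07, SE 0.10, edgeR adjusted p = 3.8e-06), Scd1, the stearoyl-CoA desaturase, by 1.54 (SE 0.25, 0.000453) and the cholesterol exporter Abca1 by 0.47 (SE 0.07, 0.000436). Of the remaining list of 4 tested genes, Retsat rose by 0.76 (SE 0.24, 0.0381), a call that was lost without mouse 3, 4 or 5 (up to 0.157), with scaling by total counts and with no pairing. Txnip, the most abundant of that list, read 1177 in the GPI gonad of mouse 1 and 363, 241, 296 and 374 in the other GPI gonads, against 736 to 941 with vehicle. Its log2 fold change was -1.08 (SE 0.24, edgeR adjusted p = 0.00423), -1.47 without mouse 1 (6.82e-07), and -0.83 and not called with no pairing (0.078).

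**Figure D5:**
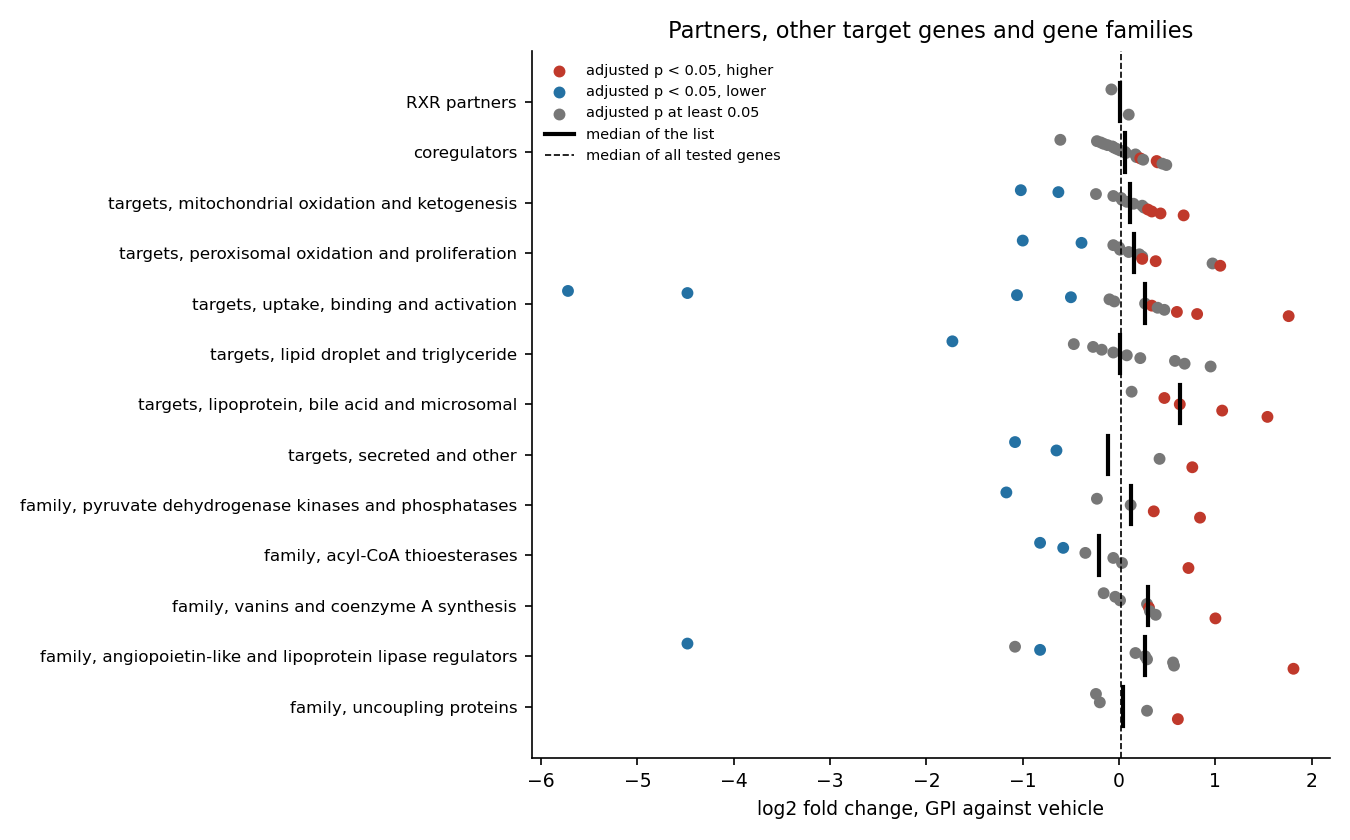
Log2 fold change with GPI of every tested gene in the lists of receptor partners, other PPAR target genes and gene families of the members; each point is 1 gene coloured by its call, the thick mark is the median of the list and the dashed line that of all tested genes (0.02). Medians lie near 0 for most lists, with Fabp4 (-5.72) and Gpihbp1 (-4.48) at the far left and Lipg (1.81), Fabp3 (1.76) and Scd1 (1.54) on the right.

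The paralogs of the targets did not move as families. Of 6 tested thioesterases beside Acot1 and Acot2, Acot13, the most abundant per kilobase, rose by 0.72 on the log2 scale (SE 0.12, edgeR adjusted p = 0.000574), Acot9 fell by 0.58 (SE 0.14, 0.00749) and Acot7 fell by 0.82 (SE 0.23, 0.0185), the last not without mouse 3 (0.087) or 4 (0.0812). Acot8 (log2 fold change -0.06, adjusted p = 0.877, with its sign turned without mouse 2) and Acot11 (-0.35, 0.4) were not called by edgeR. Around Vnn1 in coenzyme A turnover, Pank1, a pantothenate kinase that starts coenzyme A synthesis, rose from 568, 708, 688, 597 and 728 with vehicle to 989, 1268, 1598, 1498 and 1277 with GPI, and the groups did not overlap. Its log2 fold change was 1.0 (SE 0.10, edgeR adjusted p = 5.58e-06). Pank3, the most abundant of this list, rose by 0.31 (0.00677), a call lost without mouse 3 (0.0731). The later steps were not called by edgeR, with log2 fold changes of 0.38 for Ppcs (adjusted p = 0.211), 0.01 for Ppcdc (0.983) and 0.32 for Coasy (0.242), nor were Pank2 (-0.04, 0.775), Pank4 (-0.16, 0.452) and the vanin relative Btd (0.29, 0.26). Vnn3 had no counts.

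Around Angptl4, the endothelial lipase Lipg rose from 44.3, 72.8, 88.2, 56.8 and 106 to 134, 269, 259.6, 356 and 278, with a log2 fold change of 1.81 (SE 0.18, edgeR adjusted p = 8.3e-06). Lipg thus moved against the endothelial markers. Angptl7 fell by 0.82 (SE 0.22, 0.0147), a call lost without mouse 3 (0.0739). Lipoprotein lipase itself (Lpl) was the most abundant of the list per kilobase over both groups, though with vehicle alone Gpihbp1 was (424, and 405 for Lpl). Lpl had a log2 fold change of 0.27 with an edgeR adjusted p of 0.0546. It was called with DESeq2 and limma-voom, with no filter on low counts and without mouse 1 or 2 (adjusted p from 0.0272 to 0.305 over the alternatives). Angptl1 (0.57, edgeR adjusted p = 0.0838), Angptl2 (0.29, 0.0696) and Lmf1 (0.17, 0.544) were not called, although Angptl1 was with no filter or without mouse 5 and Angptl2 without mouse 2. Of the uncoupling proteins, Ucp2, the most abundant, had a log2 fold change of -0.24 (edgeR adjusted p = 0.185, and 0.0304 without mouse 5), while Slc25a30 rose by 0.61 (SE 0.14, 0.0073). Slc25a14 (0.29, 0.234) and Slc25a27 (-0.20, 0.23) were not called by edgeR.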

How the data were processed

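RNA from 10 cultured testes was sequenced as paired reads of 151 bases without strand. The deposited values are raw counts per gene; the submitters' processing notes name STAR 2.5, Subread 1.5.0-p1 and the mm10 genome. From these counts, libraries were TMM-scaled and genes filtered with filterByExpr (minimum count 10), leaving 13941 of 24470 entries. The fit was edgeR 4.0.16 (glmQLFit, glmQLFTest) in R 4.3.3 with mouse as a block, and calls used a Benjamini-Hochberg adjusted p under 0.05. The script was tested on simulated data. Alternatives used DESeq2 1.42.0, limma 3.58.1, other scaling or filters, no block, and each mouse left out.

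The pairing comes from the labels, which give the animal. Deviations from the treatment mean correlated within mice at 0.155, -0.04, 0.03, 0.082 and 0.073 (mean 0.06, against -0.015 between different mice).

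Normalized counts are counts divided by effective library size, times its mean. Within-mouse log2 ratios add 2 counts. Gene lengths are merged exons of GENCODE M21 transcripts with a RefSeq identifier, found for 286 of 286 listed genes. Members and lists were chosen with earlier results of these data known. Named genes are all members, the 3 called genes with the smallest p and the most abundant gene of each list, family members with a mean of at least 50 counts, and the 2 genes most alike to each called member. Limits of detection cover counting error only. Results of some listed genes are not reported here. Tables were made with pandas 2.3.3 under Python 3.11.15 (numpy 2.4.6) and plots with matplotlib 3.10.9.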

Additional observations from a re-analysis of the deposited data

Results flagged for a closer look

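In 27 groups of 5 values (the normalized counts of 9 genes with vehicle and with GPI, and their ratios within mice), a library was noted when its gap to the nearest other value exceeded 0.71 of the group's range. For normally distributed values, chance brings this about in about 1 of 20 groups. The ratios are made from the same counts, so the groups are not independent. In 4 groups 1 library was that far from the rest. Pdk4 read 142.1 normalized counts in the GPI gonad of mouse 1, where the other GPI gonads lay between 24.0 and 55.1. Angptl4 read 211.4 in the GPI gonad of mouse 5, with the others between 97.85 and 123. Acot1 read 454.8 in the vehicle gonad of mouse 5, with the others between 785 and 836.5. Ucp3 read 3.35 in the vehicle gonad of mouse 3, the equivalent of 3 counts, and 0 in the other vehicle gonads. With only 1 value above 0 the rule is always met, so the rate of 1 in 20 does not apply to Ucp3.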

How the results depend on the processing

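Ppara, Vnn1 and Acot2 kept their direction and their call in every alternative, with log2 fold changes of 1.37 to 1.72, 1.74 to 1.99 and 0.41 to 0.73 (0.41 being the sum of Acot1 and Acot2). Of 98 values of members under alternatives 85 kept direction and side of the threshold, 11 lost the call (Pparg and Pdk4), 2 gained it (Acot1 with no filter on low counts, and its sum with Acot2) and 0 changed sign. The count of members called lower, 1 in the main analysis, was 0 with limma-voom, 0 with no replicate block and 0 to 1 with a mouse left out. The count of other targets called higher was 9 to 14 with a mouse left out, and that of partners and coregulators called higher 1 to 4; fewer samples enter those fits. With no replicate block, and with scaling by total counts, 1 coregulator (Crebbp) was called lower, where the main analysis had 0; the cause was not tested. All genes called numbered 3198 in the main analysis, and unpairing the mice (no block) changed no other call of a member. Of 74 other named genes that were called, 57 kept the call in every alternative and 17 lost it in at least 1. The signs that turned belonged to genes near 0: Ncor1 (-0.04 with total counts, -0.02 to 0.07 with a mouse left out), Acot8 (-0.18 to 0.10 with a mouse left out) and Ppcdc (-0.04 with total counts, 0.00 with at least 10 counts in every library, -0.12 to 0.15 with a mouse left out).

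Pparg averaged only 34.4 counts per library, and Ucp3 could not be tested. With 5 mice and whole testes, a change in 1 cell type cannot be separated from a change in its share.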

Other observations

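Other programmes known to regulate Pdk4 or Angptl4 were followed in lists. Of 12 hypoxia targets and factors 9 were called lower and 1 higher. Per kilobase Vegfa was the most abundant over both groups, but with GPI alone Hif1a was (1060, and 818 for Vegfa). Vegfa read 7539 in the GPI gonad of mouse 1 and 2217, 1521, 1413 and 1719 in the other GPI gonads. Against 3698 to 5144 with vehicle, it followed the same pattern over mice as Pdk1 and Pdk4. Its log2 fold change was -1.02 (edgeR adjusted p = 0.00648), -1.41 without mouse 1 (2.46e-08) and -0.67 and not called with no pairing (0.216). Adm fell by 1.79 (0.00137), and Epas1, a gene of endothelium among other cells, by 1.25 (1.64e-07), while Hif1a rose by 0.53 (0.000529).

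Genes induced by glucocorticoids were mixed, with 1 of 8 tested called higher and 2 lower. Dusp1 fell by 1.24 on the log2 scale (edgeR adjusted p = 0.000131) and Errfi1 by 0.53 (0.00298), Fkbp5 rose by 0.31 (0.0337, a call lost in 6 alternatives, up to 0.156), and Klf9, the most abundant, had a log2 fold change of -0.07 (0.599). FOXO factors and targets were mixed too, 4 of 12 higher and 3 lower. Trib1 fell by 0.90 (0.000208) and Ccng2 by 0.40 (0.00399). Foxo6 rose by 1.01 (0.00628) and Foxo3 by 0.25 (0.0428, lost in 4 alternatives, up to 0.256). Foxo3 was the most abundant per kilobase over both groups, although with vehicle alone Ccng2 was (430, and 410 for Foxo3).

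Of 7 fat cell markers listed 5 were under the filter on low counts, among them Adipoq and Lep, and Lep had 0 counts in every library, while Slc2a4 was higher with GPI (log2 fold change 0.97, edgeR adjusted p = 0.00843) and Plin1 was not called (0.68, 0.404). Their summed normalized counts were 69.4 on average with vehicle and 114.5 with GPI, 165% of the vehicle mean, and were higher with GPI in 5 of 5 mice although the groups overlapped. Most of both sums came from Slc2a4 (means of 39.6 with vehicle and 76.9 with GPI) and Plin1 (27.5 and 34.4). Of 8 skeletal muscle markers 2 were tested, with Tnnt3 lower (-1.26, 0.01) and Des, the most abundant, at -0.43 (0.15, but called without mouse 2, 0.0282). Interstitial progenitor markers split, 2 of 8 higher (Maf 0.49, Pdgfra 0.33) and 3 lower (among them Gli1 -0.42 and Tcf21 -0.30). The call of Gli1 was lost without mouse 3 or 4 and with no pairing (edgeR adjusted p up to 0.0739). That of Tcf21 was lost without mouse 2, 3 or 4 (up to 0.0942). Tcf21 was the most abundant per kilobase over both groups, although with GPI alone Pdgfra was (986, and 924 for Tcf21). Mesonephric markers had 1 of 3 tested lower, Emx2 (-0.73, 0.000774), while Pax8 (-0.28, edgeR adjusted p = 0.526) and Gata3 (0.10, 0.822) were not called. Of 4 coelomic epithelium markers tested none was called by edgeR, DESeq2 or limma (0 at an unadjusted p under 0.05), with Upk3b at 0.23 (0.155). Erythroid genes were lower in 5 of 7 tested, with Hbb-y, the most abundant, at -0.98 (edgeR adjusted p = 0.0075).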
